A study of Homo sapiens with 8 samples.

Results

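The genes described here are 9 antioxidant and detoxification genes known as targets of the transcription factor NRF2, which the gene NFE2L2 encodes: GCLC, GCLM, SLC7A11, SRXN1, HMOX1, NQO1, OSGIN1, AKR1C1 and AKR1B10. They were chosen by name, and each was read through the array probes whose reference sequence carries its symbol. These were 11 probes, and a gene with more than 1 probe took the brightest over all arrays. All 9 were among the 16955 genes with a probe that passed the filter on dim signal. RNA had been measured on 8 one-color Agilent SurePrint G3 arrays, 2 for each of 4 groups, in the cell lines OVSAHO and KURAMOCHI, each incubated either with simvastatin or with L-778123. Both are established ovarian cancer cell lines and are used as models of serous carcinoma. Simvastatin blocks HMG-CoA reductase and thereby the mevalonate pathway, which supplies the lipid groups used in protein prenylation, while L-778123 inhibits the 2 prenyltransferases that attach farnesyl and geranylgeranyl groups to proteins. The study set one drug against the other to separate effects of simvastatin on prenylation from its remaining effects. Cells without a drug or with vehicle alone were not analysed here, so each value compares the drugs with each other and does not show which of them moved a gene. The concentrations and the length of the cultures behind the arrays are not given in the sources used here.

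NRF2 is held at a low level in unstressed cells by KEAP1, an adaptor that presents it to the CUL3 and RBX1 ubiquitin ligase for degradation. Electrophiles and oxidants modify KEAP1, and the protein SQSTM1 can sequester it, after which NRF2 pairs with a small MAF protein on the antioxidant response element, a short sequence in the control regions of its target genes. BACH1 competes for the same element as a repressor and is itself released by heme. Targets of this system make and recycle glutathione, reduce quinones and peroxides and degrade heme, and several are read as markers of its activity in tumor cells.

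RefSeq promoter windows on the build GRCh38.p14 were at hand for 6 of the 9 genes, and HMOX1, SLC7A11 and AKR1B10 had none in the table used. The windows, 250 bases before to 50 bases after the start of the gene, were searched for the core of the antioxidant response element, TGACNNNGC, and for GCNNNGTCA, the same letters on the opposite strand. The core was found in 4687 of the 35116 windows of all genes, 13.3%, and in 1 of the 6 members' windows, that of GCLM. Among the 25 other NRF2 targets with a window, 13 held it in any window. That count is by gene, whereas the 13.3% is a share of single windows. The bases before the start are printed 5′ to 3′ along the gene for GCLM, which was lower with simvastatin in both lines, and for NQO1 and OSGIN1, which were higher with simvastatin in OVSAHO. Capitals mark the core.
GCLM (chr1:93909431-93909680, minus strand): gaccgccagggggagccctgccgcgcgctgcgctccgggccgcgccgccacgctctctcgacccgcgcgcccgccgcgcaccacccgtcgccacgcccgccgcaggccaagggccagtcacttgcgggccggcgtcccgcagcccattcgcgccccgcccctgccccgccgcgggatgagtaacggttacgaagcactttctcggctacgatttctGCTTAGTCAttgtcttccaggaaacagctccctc
NQO1 (chr16:69726561-69726810, minus strand): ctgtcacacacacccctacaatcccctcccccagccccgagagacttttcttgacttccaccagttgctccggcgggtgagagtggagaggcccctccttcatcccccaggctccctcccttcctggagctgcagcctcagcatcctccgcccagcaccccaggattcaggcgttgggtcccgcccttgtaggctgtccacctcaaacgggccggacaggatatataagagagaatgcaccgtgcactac
OSGIN1 (chr16:83952990-83953239, plus strand): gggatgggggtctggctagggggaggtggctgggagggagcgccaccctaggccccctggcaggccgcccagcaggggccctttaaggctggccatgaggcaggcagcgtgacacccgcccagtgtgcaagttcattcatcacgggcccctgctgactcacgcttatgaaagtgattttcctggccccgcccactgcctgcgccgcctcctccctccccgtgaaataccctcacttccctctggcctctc
The GCLM match, GCTTAGTCA, lay on the opposite strand of the gene and ended 25 bases before its start. A match describes the letters in the window and is not a measured site, and the absence of one says only that these letters were not in this window.

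The arrays had been read at similar brightness. Between 51.8% and 57.5% of the probes were well above background, the 75th percentile of the intensity ran from 324 to 437, and no spot was saturated. A level is given as the log2 intensity of the gene's probe minus the log2 of the array's 75th percentile, so that levels of 1 probe can be compared across arrays and levels of different probes cannot. Replicate arrays correlated with r = 0.995 to 0.996 across probes, which are not independent replicates, and their median absolute difference was 0.096 to 0.11. The labels do not say whether the arrays of a group came from separate cultures, so p-values measure the spread between these arrays, which may be technical. The arrays lay on 1 slide with each line in its own row and each drug in its own columns, and position and group cannot be told apart. All 12 markers of serous carcinoma and epithelium were well above background on all 8 arrays. Of markers of other cells, 2 of 3 leukocyte, 2 of 4 endothelial and 0 of 5 fibroblast genes with a probe were well above background on every array, with COL1A1 and COL3A1 detected on all KURAMOCHI arrays. Of these, VWF was lower with simvastatin in OVSAHO, at -3.30 (adjusted p = 2.43e-05), while CDH5 gave -0.27 (adjusted p = 0.293) and PECAM1 was well above background on no array, and the part of other cells in the results was not tested. In such RNA from whole cultures, fewer cells that express a gene and less RNA per cell cannot be told apart.

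In OVSAHO cells the heme oxygenase gene HMOX1, the quinone reductase gene NQO1 and OSGIN1 were higher with simvastatin than with L-778123, while the genes of glutathione supply differed by at most 0.30 on the log2 scale. At an adjusted p under 0.05 (limma, Benjamini-Hochberg over all probes tested), 6 of the 9 genes were higher with simvastatin and 1 was lower. Across all 33753 probes tested, 48.1% passed in this comparison, 23.0% higher and 25.1% lower. The median log2 difference of the 9 genes, AKR1C1 included, was 0.52, against 0.01 over all probes. The drug groups did not overlap for 8 of the 9, all but SLC7A11, which was so for 77.1% of all probes. A difference of at least 2-fold was reached by 2 of the 9, HMOX1 and AKR1C1, against 11.0% of all probes. AKR1C1 entered the test only through its simvastatin arrays in OVSAHO, where both were well above background, so a difference there was built into its selection. Among the 8 genes well above background on all arrays, 5 were higher and 1 lower, with a median log2 difference of 0.39.

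HMOX1 encodes heme oxygenase 1, which opens the heme ring and yields biliverdin, iron and carbon monoxide. Its probe, A_23_P120883, is printed 10 times on the array, and the SD of these spots within an array was 0.035 to 0.077. In OVSAHO the level was 2.89 on both simvastatin arrays, and 0.26 and 0.39 on the L-778123 arrays. The drugs were separated by much more than the spread of either group, with a log2 difference of 2.56 (SE 0.073), or 5.91-fold, and an adjusted p of 2.04e-05 from limma. In KURAMOCHI the levels were 2.09 and 2.21 with simvastatin and 1.08 and 1.04 with L-778123. The difference there was 1.09 (SE 0.073), or 2.14-fold, with an adjusted p of 0.000495. Simvastatin arrays lay above L-778123 arrays in both lines, and the order of the groups was OVSAHO simvastatin, KURAMOCHI simvastatin, KURAMOCHI L-778123 and OVSAHO L-778123, with no overlap between neighbors.

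NQO1 encodes the quinone reductase that transfers 2 electrons at once and so avoids reactive semiquinones. Its probe, A_23_P206661, read -1.70 and -1.52 on the OVSAHO simvastatin arrays and -2.61 and -2.46 on the OVSAHO L-778123 arrays. The log2 difference was 0.93 (SE 0.094), or 1.91-fold, with an adjusted p of 0.000766. In KURAMOCHI the levels ran the opposite way, at -2.11 and -1.99 with simvastatin and -1.58 and -1.52 with L-778123. Here NQO1 was lower with simvastatin by 1.41-fold, a log2 difference of -0.50 (SE 0.094, adjusted p = 0.0124). That call was lost by Tukey's test after a two-way analysis of variance. The highest groups, OVSAHO simvastatin and KURAMOCHI L-778123, overlapped, and the lowest was OVSAHO L-778123. The KURAMOCHI difference missed the threshold without simvastatin replicate 1 or without L-778123 replicate 2 of that line.

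**Figure D1:**
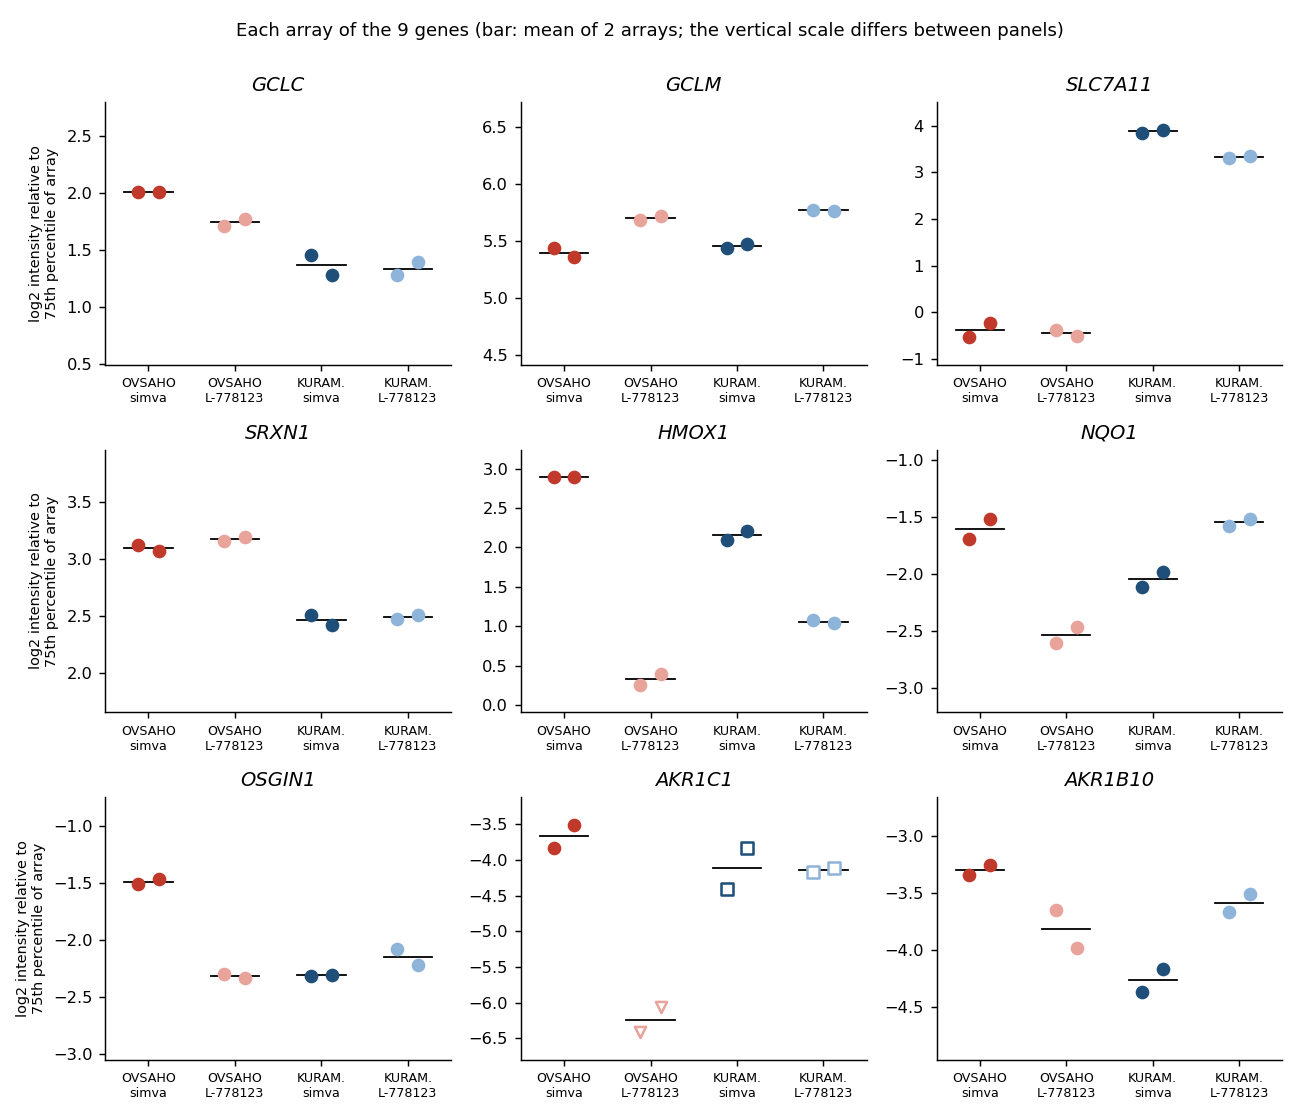
Level of the 9 genes on each array, as log2 intensity of the gene's probe minus log2 of the array's 75th percentile (vertical axis, its range set for each gene), for the 4 groups of 2 arrays; bars are group means. Filled points are groups well above background on both arrays, squares on 1 of the 2 and triangles on neither; HMOX1 separates the drugs in both lines, NQO1 has opposite orders in the lines, and SLC7A11 separates the lines.

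OSGIN1, an oxidative stress induced growth inhibitor, was read by probe A_23_P77415. Its levels in OVSAHO were -1.51 and -1.47 with simvastatin and -2.30 and -2.33 with L-778123. It was higher with simvastatin by 0.82 on the log2 scale (SE 0.065, 1.77-fold), with an adjusted p of 0.000336. In KURAMOCHI the simvastatin arrays both read -2.31 and the L-778123 arrays -2.08 and -2.22, a difference of -0.16 (SE 0.065) that did not pass, with an adjusted p of 0.116. OVSAHO with simvastatin stood highest, and the levels of OVSAHO with L-778123 and KURAMOCHI with simvastatin overlapped.

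AKR1C1 and AKR1B10 encode cytosolic aldo-keto reductases that reduce ketosteroids, retinal and reactive aldehydes with NADPH. Both belong to families of near-identical paralogs, so a probe may also bind transcripts of AKR1C2, AKR1C3 or AKR1B15, and their values are uncertain in this respect. The AKR1C1 probe A_23_P257971 read -3.84 and -3.50 on the OVSAHO simvastatin arrays. On the OVSAHO L-778123 arrays it read -6.41 and -6.06, not well above background on either, and it was detected on 1 of 2 arrays in each KURAMOCHI group. Its measured group means in OVSAHO were -3.67 and -6.24. Set against the dimmest signal still detected on the L-778123 arrays, AKR1C1 was at least 2.38-fold higher with simvastatin (adjusted p = 0.000492 for the fitted difference). A dimmer AKR1C1 probe gave at least 1.28-fold (adjusted p = 0.00094), with 1 of 2 simvastatin arrays well above background. In KURAMOCHI the levels were -4.40 and -3.83 with simvastatin and -4.16 and -4.11 with L-778123, and these groups overlapped (log2 difference 0.02, 95% interval -0.54 to 0.59, adjusted p = 0.95).

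The AKR1B10 probe A_23_P93641 was dim but well above background on all 8 arrays. In OVSAHO it read -3.34 and -3.26 with simvastatin and -3.65 and -3.99 with L-778123. The log2 difference of 0.52 (SE 0.137, 1.43-fold) had an adjusted p of 0.0250, and 0.73 with an adjusted p of 0.0113 on the other probe of the gene. By Tukey's test the main probe did not pass in either line. The OVSAHO call of the main probe was lost without either simvastatin replicate or without L-778123 replicate 2. In KURAMOCHI it read -4.37 and -4.17 with simvastatin and -3.66 and -3.51 with L-778123. AKR1B10 was thus lower with simvastatin there, by 1.60-fold (log2 difference -0.68, SE 0.137, adjusted p = 0.0157). On the other probe this difference was -0.36 and did not pass (adjusted p = 0.133), and on the main probe it was lost without KURAMOCHI simvastatin replicate 1 or L-778123 replicate 2.

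Glutathione supply was represented by GCLC and GCLM, the catalytic and the modifier subunit of glutamate-cysteine ligase, and by SLC7A11, the transport subunit of the cystine and glutamate exchanger xCT. GCLM, probe A_33_P3265606, was the one gene of the 9 that passed as lower with simvastatin in OVSAHO. It read 5.44 and 5.36 with simvastatin against 5.69 and 5.72 with L-778123 in OVSAHO, and 5.44 and 5.47 against 5.78 and 5.77 in KURAMOCHI. The log2 differences were -0.30 (SE 0.057, adjusted p = 0.00738) and -0.32 (SE 0.057, adjusted p = 0.0108), and the simvastatin arrays lay below the L-778123 arrays in each line. The KURAMOCHI call was lost without simvastatin replicate 1 or L-778123 replicate 1 of that line.

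GCLC, probe A_23_P145114, read 2.01 on both OVSAHO simvastatin arrays and 1.71 and 1.77 on the L-778123 arrays. Its log2 difference of 0.27 (SE 0.082, adjusted p = 0.0398) passed narrowly and was lost under 9 of the 19 alternative settings, with each OVSAHO array left out among them. In KURAMOCHI the levels were 1.46 and 1.28 against 1.28 and 1.39 and overlapped (difference 0.03, adjusted p = 0.782). SRXN1 encodes sulfiredoxin, which restores overoxidized peroxiredoxins, and the drug differences of its probe A_23_P320113 did not pass. Its levels were 3.12 and 3.07 against 3.16 and 3.19 in OVSAHO, and 2.51 and 2.42 against 2.47 and 2.51 in KURAMOCHI. The differences were -0.08 (95% interval -0.23 to 0.07, adjusted p = 0.312) and -0.02 (95% interval -0.17 to 0.12, adjusted p = 0.792).

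SLC7A11, probe A_33_P3242623, was higher with simvastatin in KURAMOCHI, at 3.84 and 3.91 against 3.31 and 3.36. The log2 difference was 0.54 (SE 0.116, 1.46-fold, adjusted p = 0.0188), and the call was lost when any of the 4 KURAMOCHI arrays was left out, at differences of 0.50 to 0.58. In OVSAHO it read -0.54 and -0.22 with simvastatin and -0.38 and -0.52 with L-778123. These groups overlapped (log2 difference 0.07, 95% interval -0.22 to 0.36, adjusted p = 0.65).

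Over KURAMOCHI as a whole, 2 of the 9 genes, HMOX1 and SLC7A11, were higher with simvastatin and 3, NQO1, AKR1B10 and GCLM, were lower at an adjusted p under 0.05, while 31.4% of all probes tested passed, 14.1% higher and 17.3% lower. The drug groups did not overlap for 6 of the 9, against 69.9% of all probes. The median difference was -0.02, against 0.002 over all probes. HMOX1 alone reached 2-fold, which 5.59% of all probes did. The count of 5 rested on single arrays, since 1 gene, HMOX1, passed without simvastatin replicate 1, 3 without L-778123 replicate 1 and 2 without L-778123 replicate 2 of KURAMOCHI.

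**Figure D2:**
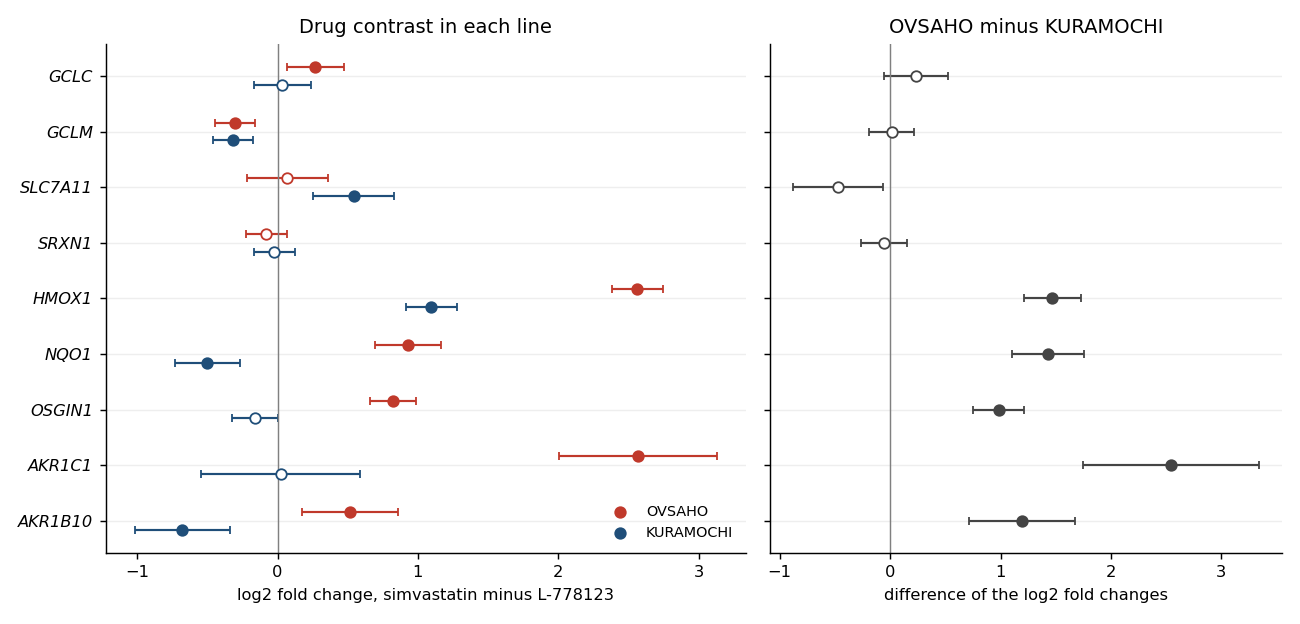
Left, log2 fold change of simvastatin minus L-778123 in OVSAHO (red) and KURAMOCHI (blue) for the 9 genes; right, the difference of these values between the lines. Points are estimates and bars 95% intervals from limma, filled where the adjusted p was under 0.05; HMOX1, NQO1, OSGIN1 and AKR1B10 differed between the lines. The fitted AKR1C1 values in OVSAHO and in the difference rest on arrays that were not well above background and are no measured differences.

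The drug contrast itself differed between the lines for 4 of the 8 genes well above background on all arrays, HMOX1, NQO1, OSGIN1 and AKR1B10, each with the larger value in OVSAHO. By comparison, 22.9% of all probes passed in this test, 11.2% with the larger value in OVSAHO and 11.7% with the smaller. AKR1C1 passed too, which makes 5 of the 9, but its test rests on signal that was not detected with L-778123 in OVSAHO and on a filter it passed through its high group, so it is no evidence of a difference. The OVSAHO contrast exceeded that of KURAMOCHI by 1.47 on the log2 scale for HMOX1 (SE 0.104, adjusted p = 0.000908), where the level was higher with simvastatin in both lines. For NQO1 it did so by 1.43 (SE 0.133, adjusted p = 0.00196) and for AKR1B10 by 1.19 (SE 0.194, adjusted p = 0.0106), and these 2 genes passed in opposite directions in the lines. By Tukey's test the calls of both within KURAMOCHI and of AKR1B10 within OVSAHO were lost. For OSGIN1 the difference was 0.98 (SE 0.092, adjusted p = 0.002), with a KURAMOCHI contrast that did not pass. With the normexp background correction the difference was 0.51 for AKR1B10 and 0.89 for NQO1, and the fitted value of AKR1C1 in OVSAHO, 2.57, was 0.59. The other probe of AKR1B10 passed as well, at 1.09. The calls of the 4 genes for the difference between the lines were lost under none of the alternative settings.

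For the glutathione genes and SRXN1 the difference between the lines did not pass. It was 0.01 for GCLM, with a 95% interval of -0.19 to 0.21, and -0.06 for SRXN1, with an interval of -0.26 to 0.15. GCLC gave 0.23 (interval -0.05 to 0.52, adjusted p = 0.205). For SLC7A11 it was -0.47 (interval -0.88 to -0.07, adjusted p = 0.0945), so a contrast up to 0.88 larger in KURAMOCHI lay within the interval.

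Averaged over both drugs, 4 of the 9 genes were higher in OVSAHO and 3 higher in KURAMOCHI, a share of passing genes close to the 77.7% of all probes that differed between the lines, 40.2% higher and 37.4% lower in OVSAHO. The lines did not overlap over both drugs for 3 of the 9, GCLC, SLC7A11 and SRXN1, against 57.6% of all probes. SLC7A11 was the one gene that differed by at least 2-fold, as did 33.7% of all probes. It was lower in OVSAHO by 4.02 on the log2 scale (SE 0.082, 16.2-fold, adjusted p = 3.22e-07), and the lines were far apart under each drug, at -4.25 with simvastatin and -3.78 with L-778123. SRXN1 was higher in OVSAHO by 0.66 (SE 0.042, adjusted p = 2.35e-05) and GCLC by 0.52 (SE 0.058, adjusted p = 0.000293), in both cases under each drug. GCLM differed by -0.06 (95% interval -0.16 to 0.04, adjusted p = 0.204).

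For HMOX1 and NQO1 the lines differed in opposite directions under the 2 drugs. HMOX1 had a mean difference of 0.003 (SE 0.052). With simvastatin it was higher in OVSAHO by 0.74 (adjusted p = 0.000233), and with L-778123 it was lower there by a log2 difference of -0.73 (adjusted p = 0.000251). NQO1 likewise was higher in OVSAHO with simvastatin, by 0.44 (adjusted p = 0.00657), and lower with L-778123, at -0.99 (adjusted p = 0.0002). OSGIN1 was 0.82 higher in OVSAHO with simvastatin (adjusted p = 8.81e-05) and AKR1B10 0.97 higher (adjusted p = 0.00114), whereas with L-778123 their differences of -0.16 and -0.23 did not pass. AKR1C1 with L-778123 was at least 1.72-fold higher in KURAMOCHI than in OVSAHO (adjusted p = 0.000358), and with simvastatin the difference of 0.45 did not pass (adjusted p = 0.127). With simvastatin 7 of the 9 genes differed between the lines, beside 70.9% of all probes, and with L-778123 6, beside 69.5%.

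**Figure D3:**
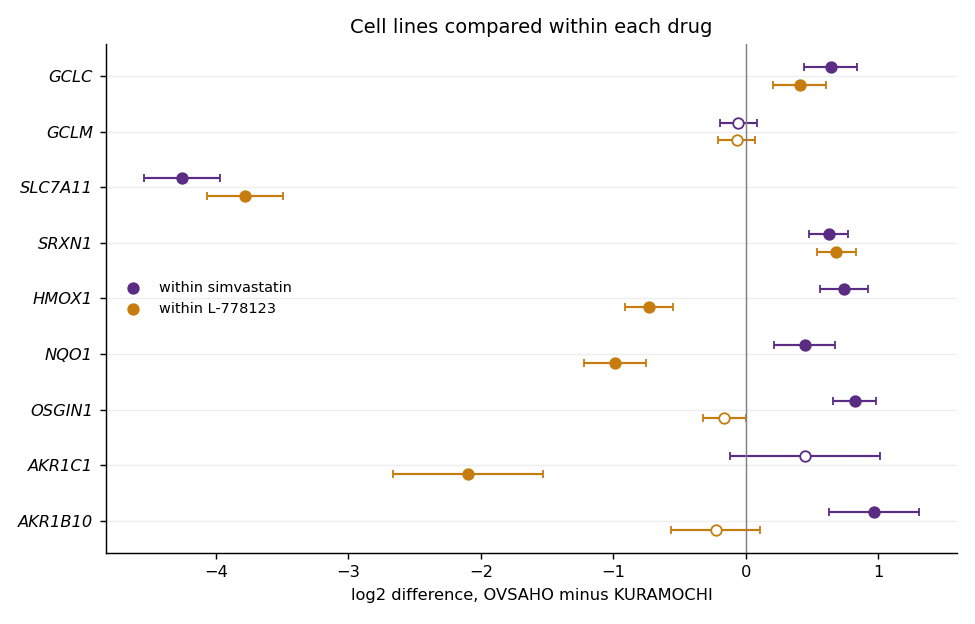
Log2 difference of OVSAHO minus KURAMOCHI for the 9 genes within simvastatin (purple) and within L-778123 (orange). Points are estimates and bars 95% intervals from limma, filled where the adjusted p was under 0.05; SLC7A11 was lower in OVSAHO under both drugs, and HMOX1 and NQO1 changed sign with the drug. The AKR1C1 value within L-778123 rests on OVSAHO arrays not well above background.

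Among 11 tested regulators of the pathway, 7 were higher and 2 lower with simvastatin in OVSAHO, with a median log2 difference of 0.45, and 6 were higher and 3 lower in KURAMOCHI, with a median of 0.32. The contrast differed between the lines for 4, each with the larger value in OVSAHO. Of all probes, 22.9% passed in that test, 11.2% with the larger value in OVSAHO. Without the filter on dim probes, 2 regulators had a larger value in OVSAHO. Of all probes, 48.1% passed in OVSAHO and 31.4% in KURAMOCHI. The lower ones were RBX1 and NFE2L3 in both lines and MAFK in KURAMOCHI, and in OVSAHO 1 was lower with any single OVSAHO array or either KURAMOCHI L-778123 array left out, and 0 by Tukey's test. The KURAMOCHI counts ranged over the alternative settings from 2 to 6 higher and from 1 to 3 lower, and were 3 and 1 without L-778123 replicate 1 or 2 of that line. SQSTM1, the autophagy receptor p62 that binds KEAP1, read 6.35 and 6.29 with simvastatin and 4.70 and 4.63 with L-778123 in OVSAHO. Its differences were 1.66 in OVSAHO (SE 0.059, adjusted p = 3.34e-05), 0.40 in KURAMOCHI (adjusted p = 0.00552) and 1.26 between the lines (adjusted p = 0.000754). SQSTM1 is itself known as an NRF2 target.

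The small MAF genes, whose proteins pair with NRF2 or with BACH proteins, were all higher with simvastatin in OVSAHO, MAFF by 1.02, MAFG by 0.84 and MAFK by 0.75 (adjusted p = 0.000796, 0.000212 and 0.000676). MAFK was lower with simvastatin in KURAMOCHI, at -0.32 (adjusted p = 0.0241), and its contrast differed between the lines by 1.07 (adjusted p = 0.00218). BACH2, a repressor related to BACH1, differed by 1.44 in OVSAHO (adjusted p = 0.00345) and 0.98 in KURAMOCHI (adjusted p = 0.0219). Its other probe gave 1.55 in OVSAHO (adjusted p = 0.014) and at 0.12 did not pass in KURAMOCHI (adjusted p = 0.82). BACH1 did not pass in OVSAHO, at 0.04 (adjusted p = 0.651), and was 0.33 higher in KURAMOCHI (adjusted p = 0.0131). On its other probe BACH1 was lower with simvastatin in KURAMOCHI, at -0.401 (adjusted p = 0.049), and the mean over its probes gave -0.03. In KURAMOCHI the calls of MAFF, MAFG, MAFK, BACH1 and BACH2 were each lost under 4 to 6 settings, with single KURAMOCHI arrays left out among them. KEAP1 was 0.40 higher with simvastatin in OVSAHO (adjusted p = 0.00201) and at -0.03 did not pass in KURAMOCHI. The probe of NFE2L2 itself was well above background on 1 of the 8 arrays and was not tested, so no level of NRF2 transcript is given.

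Of 30 tested genes on a list of other NRF2 targets, 11 were higher and 6 lower with simvastatin in OVSAHO, and 2 were higher and 8 lower in KURAMOCHI. The medians were 0.08 and -0.08. The contrast differed between the lines for 11, beside 22.9% of all probes. Of the 11, 7 had the larger value in OVSAHO and 4 in KURAMOCHI, beside 11.2% and 11.7% of all probes. CBR3 counted among those higher and those with the larger value in OVSAHO without being well above background in either OVSAHO group. The 2 higher ones in KURAMOCHI were IDH1 and GSR, at 0.33 and 0.22 (adjusted p = 0.00698 and 0.0497). In all, 17 of 30 passed in OVSAHO, beside 48.1% of all probes, and 10 in KURAMOCHI, beside 31.4%. With any single KURAMOCHI array left out, 1 was higher and 4 to 5 were lower in that line.

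TXNRD1 and PIR shared with NQO1 a contrast that passed in opposite directions in the lines. TXNRD1, the cytosolic thioredoxin reductase, read 0.15 and 0.12 with simvastatin and -0.66 and -0.67 with L-778123 in OVSAHO, and 0.38 and 0.54 against 0.88 and 0.89 in KURAMOCHI. Its differences were 0.80 (adjusted p = 0.000437) and -0.42 (adjusted p = 0.00764). PIR, the iron-binding protein pirin, gave 1.04 (adjusted p = 9.99e-05) and -0.21 (adjusted p = 0.0374), the latter lost under 10 settings. BLVRB, a flavin and biliverdin reductase, read 3.89 and 3.98 against 2.52 and 2.53 in OVSAHO. Its contrast was 1.41 there (adjusted p = 7.7e-05) and -0.13 in KURAMOCHI (adjusted p = 0.218), and the lines differed by 1.54 (adjusted p = 0.000709).

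**Figure D4:**
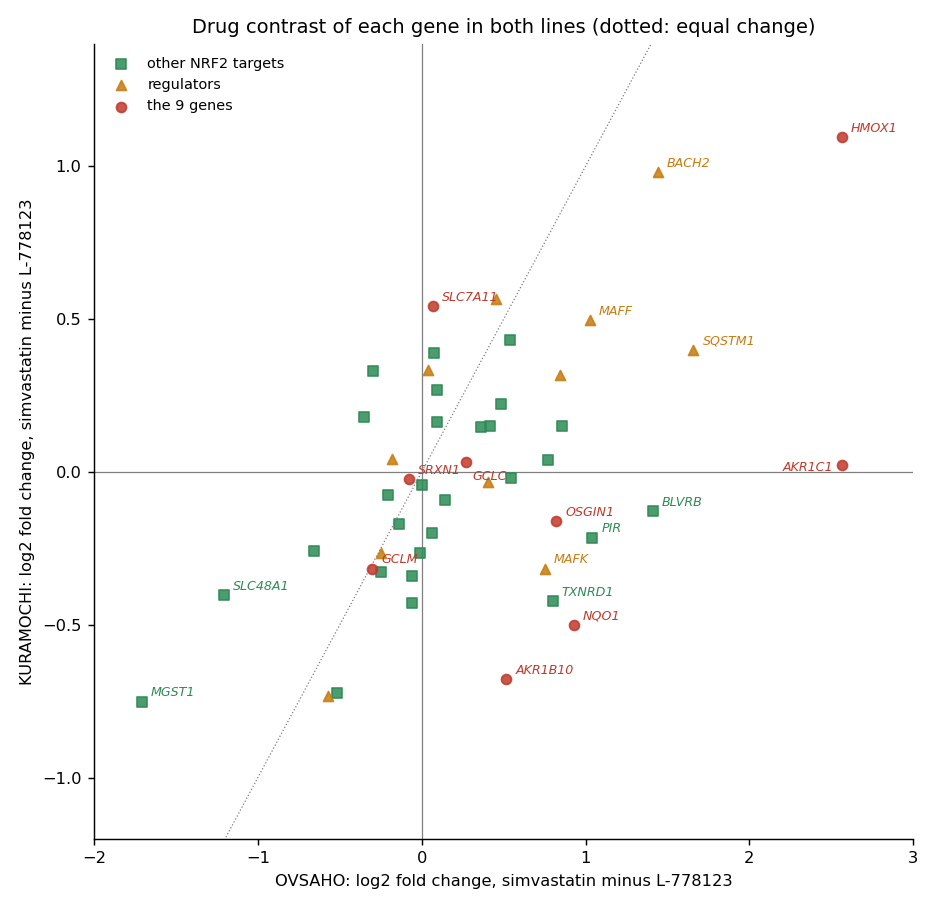
Log2 fold change of simvastatin minus L-778123 in OVSAHO (horizontal axis) and KURAMOCHI (vertical axis) for the 9 genes (red circles), 11 regulators (orange triangles) and 28 other NRF2 targets (green squares); the dotted line marks equal change. Other targets with both groups of a line below background are left out, and AKR1C1 in OVSAHO is a fitted value against arrays not well above background. NQO1, TXNRD1, MAFK and AKR1B10 lie to the right of 0 and below it.

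Other targets were lower with simvastatin in both lines. MGST1, a microsomal glutathione transferase, was lower with simvastatin by 3.26-fold in OVSAHO (log2 difference -1.71, adjusted p = 3.32e-05) and by 1.68-fold in KURAMOCHI (-0.75, adjusted p = 0.000806). SLC48A1, a heme transporter, gave -1.21 (adjusted p = 0.000107) and -0.40 (adjusted p = 0.00885). Between the lines, AKR1C3, ABCC3 and MGST1 were lower in OVSAHO by log2 differences of -4.83, -4.54 and -4.32, with adjusted p-values of 5.84e-07, 9.14e-08 and 6.37e-08.

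On the list of glutathione synthesis and use, 5 of 15 genes were higher and 6 lower with simvastatin in OVSAHO, and 2 were higher and 5 lower in KURAMOCHI, with medians of -0.11 and -0.10, beside 48.1% and 31.4% of all probes that passed. In OVSAHO 2 were higher without simvastatin replicate 2 and 3 without L-778123 replicate 1, and in KURAMOCHI 2 were lower without simvastatin replicate 1 or L-778123 replicate 1 and 3 without simvastatin replicate 2. SLC3A2, the chain that brings SLC7A11 to the membrane, was 0.64 higher in OVSAHO (adjusted p = 0.00103) and at 0.22 did not pass in KURAMOCHI (adjusted p = 0.0618). GPX3, a secreted glutathione peroxidase, differed by -0.48 in OVSAHO (adjusted p = 0.00179) and 0.60 in KURAMOCHI (adjusted p = 0.00175), an order opposite to that of NQO1. On the list of heme breakdown and iron, 4 of 9 genes were higher and 2 lower in OVSAHO, and 3 were higher and 4 lower in KURAMOCHI. Of all probes, 48.1% passed in OVSAHO and 31.4% in KURAMOCHI. The 2 lower in OVSAHO were 1 without simvastatin replicate 1 or L-778123 replicate 2. In KURAMOCHI the 4 lower were 0 with any single KURAMOCHI array left out, and the 3 higher were 1 without either simvastatin array of either line or L-778123 replicate 2 of KURAMOCHI. SLC40A1, the iron exporter ferroportin, was higher with simvastatin by 1.14 in OVSAHO (adjusted p = 0.000383) and by 0.37 in KURAMOCHI (adjusted p = 0.032), the latter lost under 8 settings. CYBRD1, a duodenal ferric reductase, had the larger contrast in KURAMOCHI, 1.18 against 0.45, with a difference of -0.73 (adjusted p = 0.00517).

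Of 16 other antioxidant enzymes, 2 were higher and 8 lower in OVSAHO, and 3 higher and 3 lower in KURAMOCHI, with medians of -0.21 and -0.13, beside 48.1% and 31.4% of all probes that passed. Of the 3 higher in KURAMOCHI, SOD3 was not well above background in either group of that line, and the 8 lower in OVSAHO were 5 without simvastatin replicate 1. Catalase, encoded by CAT, was higher with simvastatin in both lines, by 0.73 and 0.88 (adjusted p = 0.000557 and 0.00072). TXNIP, an inhibitor of thioredoxin, was higher with simvastatin in both lines, by 0.82 and 0.87 (adjusted p = 0.000286 and 0.000585), with a difference of -0.05 between them that did not pass (adjusted p = 0.718). The aldo-keto reductase family was read beside the same 48.1% and 31.4% of all probes that passed. Of its 8 tested members apart from AKR1C1 and AKR1B10, 1 was higher and 2 lower in each line. These calls rested on single arrays: in OVSAHO 1 was lower with any single OVSAHO array left out, and in KURAMOCHI 0 were higher with any single KURAMOCHI array left out and 1 was lower with any array but KURAMOCHI simvastatin replicate 1 left out. The lower ones were AKR1B1, at -0.86 and -0.61, and AKR7A2, at -0.20 and -0.19. In OVSAHO the higher one was AKR1C3, at 0.77 (adjusted p = 0.0126), a call lost without simvastatin replicate 2 or L-778123 replicate 2, and in KURAMOCHI AKR1A1, at 0.25 (adjusted p = 0.0185).

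SLC7A11 and HMOX1 are also known as targets of ATF4, the transcription factor of the integrated stress response. A list of 12 genes, ATF4 itself and targets of it, was read beside the NRF2 lists. CHAC1 and SLC3A2 are on this list and on that of glutathione synthesis and use. With simvastatin 9 were higher and 2 lower in OVSAHO, and 9 were higher and 0 lower in KURAMOCHI, beside 48.1% and 31.4% of all probes that passed. The medians were 0.83 and 0.43. ATF4 itself counted as higher in both lines, at 0.92 and 0.29 (adjusted p = 0.00038 and 0.034), the latter lost under 7 settings. DDIT3, which encodes the factor CHOP, differed by 1.80 in OVSAHO and 0.81 in KURAMOCHI (adjusted p = 3.36e-05 and 0.000813), and the pseudokinase TRIB3 by 1.65 and 0.89 (adjusted p = 7.5e-05 and 0.00121). The 2 that were lower in OVSAHO, PHGDH and PSAT1, encode enzymes of serine synthesis and differed by -0.91 and -0.98 (adjusted p = 0.000116 and 0.000184). The part of this response in the values of SLC7A11 and HMOX1 was not tested.

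**Figure D5:**
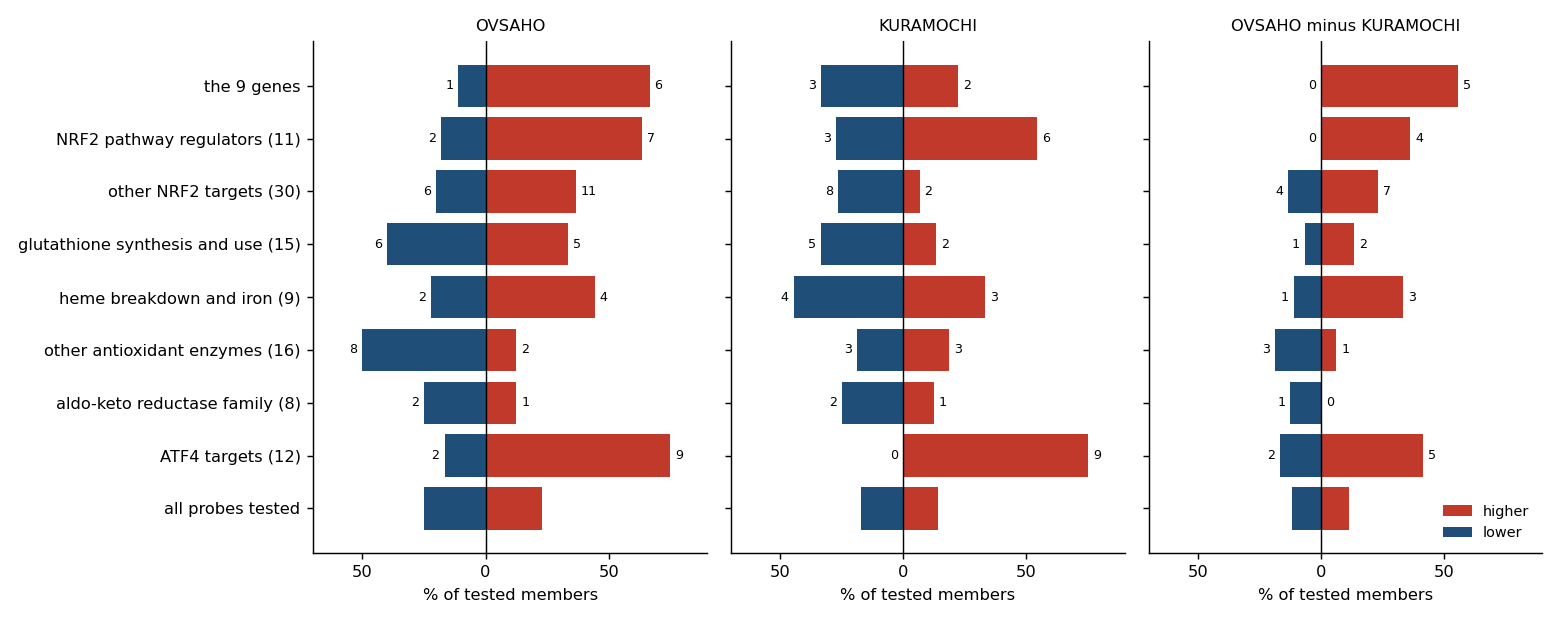
Share of the tested genes of each list that were higher (red, to the right) or lower (blue, to the left) at an adjusted p under 0.05, for simvastatin minus L-778123 in OVSAHO, in KURAMOCHI, and for the difference between the lines; numbers are gene counts and the last line is all 33753 probes tested. The 9 genes and the regulators were mostly higher with simvastatin in OVSAHO, and the other targets were mixed; the counts of the 9 genes include AKR1C1.

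Genes with the pattern most like each member over the 8 arrays were sought among 16941 genes, by the root mean square difference of log2 levels after each gene was centred on its own mean. The nearest to NQO1 was TAGLN2, at 0.074, followed by MT1F at 0.092. The nearest to HMOX1 were RASA3 and SLC16A3, at 0.144 and 0.172, and to OSGIN1 RHOA and ANXA4, at 0.050 and 0.055. SLC7A11, whose pattern is mainly that of the lines, was nearest to RMST, at 0.124. None of the members was among the 3 genes nearest to another member.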

How the data were processed

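Total RNA of the cells had been labeled and read on one-color SurePrint G3 arrays of Agilent. The authors extracted the scanned images with Agilent Feature Extraction 11.5.1.1, per the submitters' processing notes, and the deposited files hold, for each spot, a processed intensity from which background had been subtracted. A deposited table of processed intensity values, quantile normalized as its values show, served as an alternative. Here the log2 of the 75th percentile of each array was subtracted from the log2 processed intensity, spots of a probe were averaged, and a probe was kept where any group had it well above background on its 2 arrays, which left 33753 of 58201. Probes were named through their reference accession in a RefSeq table of GRCh38.p14, a later assembly than that of the array design, which matched 24782 of 50096 accessions.

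Group means were fitted over all 8 arrays with limma 3.58.1 in R 4.3.3 (two-sided, Benjamini-Hochberg over all probes tested), with 4 contrasts: the drugs within each line, the difference of these contrasts between lines, and the lines over both drugs. The test of the lines was repeated within each drug. A gene passed at an adjusted p under 0.05. Where a group was not well above background on either array, the fold was taken as at least the ratio to the lowest signal well above background on its arrays. Such folds are a convention and no strict lower bounds, since an undetected probe can read above that signal. SOD3 read -4.15, undetected, on KURAMOCHI simvastatin replicate 1, where the lowest detected signal was -4.51. With 2 arrays a group the fit had 4 residual degrees of freedom, and the number of arrays limits the precision. On simulated data for the OVSAHO contrast, 168 of 200 probes given a log2 change of 1.5 were recovered among 33753, with 6 false calls. A simulated call needed an adjusted p under 0.05 and at least 2-fold, so false calls at the adjusted p alone were not measured. The share of probes changed was also far below the 48.1% that passed in the data.

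All 9 genes were named whatever their values. Of 7 gene lists, those named were among the called genes with the largest differences, up to 4 in each direction, besides a few regulators and enzymes named in advance, of which 1 is not reported here, and genes behind counts of 5 or fewer, such as RBX1, NFE2L3, GSR, CAT, AKR1B1 and AKR7A2, were named after their values were seen. The members and the lists were chosen with earlier results of these data known. Alternatives were other filters on dim probes, background corrections, normalizations, a floor, the mean over probes, a fit of the groups compared alone, a fold threshold of 1.5, Tukey's test after a two-way analysis of variance, as in the methods, a replicate block and each array left out. The same alternatives for the lists were added after the data were seen. Plots were made in Python 3.11.15 with matplotlib 3.10.9.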

Additional observations from a re-analysis of the deposited data

Results flagged for a closer look

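The drug contrast, simvastatin minus L-778123, was larger in OVSAHO than in KURAMOCHI for 5 of the 9 genes by a test of the difference itself, the interaction term of the limma fit. On the log2 scale this difference was 1.43 for NQO1, 1.47 for HMOX1, 0.98 for OSGIN1, 2.54 for AKR1C1 and 1.19 for AKR1B10. The AKR1C1 value rests on OVSAHO arrays with L-778123 on which the probe was not well above background and is not evidence of a difference. Without it the count was 4 of the 8 genes well above background on all arrays. Of all probes, 22.9% passed this test, 11.2% with the larger value in OVSAHO.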

How the results depend on the processing

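Of the comparisons of the 9 genes under the alternative settings, 619 kept direction and side of the threshold, 33 lost the call, 6 gained one and 22 changed sign. The cause was not tested. Members at 2-fold or more in OVSAHO were 2, and 1 with only probes above background on all arrays, where AKR1C1 was not measured, 1 with normexp and 4 at a fold of 1.5; leaving out an array gave 2 to 3. Members passing in KURAMOCHI were 5, and 3 without a filter, 2 by analysis of variance with Tukey's test and 1 to 5 with an array left out. At a fold of 1.5, KURAMOCHI had 2 and the line comparison 3 members, and the line comparison had 2 with the mean over probes. The replicate block gave 6 passing members in OVSAHO, without GCLC, and 5 in KURAMOCHI, 5 for the difference and 7 between lines. The labels do not say whether same-numbered arrays were paired. Deviations of such arrays correlated at 0.000848 to 0.0556 over probes, which cannot decide it.

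Signs changed as follows. With normexp GCLC in KURAMOCHI was -0.0426 and the GCLM difference -0.0182, which was -0.0431 with quantile normalization and -0.0504 with the authors' table. AKR1C1 in KURAMOCHI was -0.144 with the mean over probes. With an array left out, GCLC in KURAMOCHI ran from -0.0556 to 0.123, AKR1C1 from -0.263 to 0.307, SRXN1 from -0.0658 to 0.0191, SLC7A11 in OVSAHO from -0.0872 to 0.227, the GCLM difference from -0.029 to 0.0545 and HMOX1 between lines from -0.031 to 0.0374. The line difference was 0.443 for NQO1 and 0.448 for AKR1C1 within simvastatin, and -0.731 for HMOX1, -0.162 for OSGIN1 and -0.229 for AKR1B10 within L-778123, with the opposite sign over both drugs. Of list genes, BACH1 in KURAMOCHI was -0.0338 and CYP4F11 in the difference 0.114 with the mean over probes, and MSRA in the difference -0.0994 with normexp. Signal near background limits AKR1C1 and AKR1B10, for which the differences between lines were 0.53 and 0.51 with normexp.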
